A study of Mus musculus with 4 samples.

Results

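The NCoR-HDAC3 corepressor is the protein complex that binds the C-terminal SPOC domain of Spen. Its subunit genes were taken from a fixed list of members and looked up in the gene count table by identifier. All 5 of them, *Ncor1*, *Hdac3*, *Tbl1x*, *Tbl1xr1* and *Gps2*, were found among the 37310 genes of the table. No measured value was used to choose them, although results from these libraries were known when the list was drawn up. All 5 had enough reads to be tested.

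RNA-seq was performed on HATX mouse embryonic stem cells (mESCs) of mixed genomic background, grown in serum and LIF. One group held 2 libraries of the WT line and the other held 2 libraries of clone 2 of a *Spen* KO made in that line, so the KO group was a single clone. Both groups carry a doxycycline-inducible *Xist* transgene, the study calls both haploid, and the labels state no treatment. Nothing says that replicates were separate cultures, so p-values measure only the spread between these libraries, which may be technical.

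NCoR1 is a long scaffold protein that carries no enzyme activity of its own. It holds the histone deacetylase HDAC3 and activates it, while the WD40 proteins TBL1X and TBL1XR1 and the small protein GPS2 complete the core of the complex. Unliganded nuclear receptors and other DNA-bound repressors bring this complex to genes, and during X inactivation Spen links it to *Xist* RNA, where loss of histone acetylation is an early step of silencing.

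The WT libraries held 36667685 and 43835004 counts in total and the KO libraries 54715889 and 61908422. *Spen* itself was not lower in the KO libraries. Its normalized read count was 3716 and 3047 in WT and 7797 and 6242 in the libraries labelled KO (log2 fold change 1.05 ± 0.21 SE, adjusted p = 7.7e-06). Counts per gene do not show which exons the reads came from, so the deletion could not be checked here, and the higher count does not decide whether the labels hold. The group is called KO-labelled from here on. Directions given here rest on the labels. Of its relatives, *Rbm15* rose (0.44 ± 0.08, adjusted p = 9.79e-08) and *Rbm15b* had a log2 fold change of 0.13 ± 0.08 (adjusted p = 0.23). All 8 mESC markers were detected, with summed normalized counts of 221982 to 227225 in WT and 229761 to 240985 in KO-labelled libraries. Markers of other cell types were low in sum but moved with the groups. The 8 fibroblast genes summed to 211 to 222 in WT and 471 to 538 in KO-labelled libraries, with *Postn* and *Lum* at 3 counts or fewer, and primitive endoderm (536 to 582 against 246 to 286), trophoblast (855 to 882 against 560 to 578) and germ layer genes (1728 to 1941 against 984 to 1017) summed lower. Single genes set much of these sums. *Thy1* went from 128 ± 14 to 385 ± 41 (SD, n = 2 each) and was the 1 fibroblast gene called. *Col1a1* and *Pdgfrb* were higher and *Col1a2* and *Col3a1* lower, none of them called. Among trophoblast genes *Eomes* (log2 fold change -0.98) and *Cdx2* (-1.85) fell and *Ascl2* rose (0.85, adjusted p = 0.0152). *T* (-3.74) and *Pax6* (-2.33) fell, while *Otx2* (-0.19) and *Mixl1* (0.56) were not called. The part of these markers in the results was not tested. In bulk RNA, fewer cells of a type and less RNA per cell cannot be told apart.

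*Tbl1x* and *Tbl1xr1* are paralogs, and the comparison between them rests on reads being assigned to the right copy. The coding sequence was 1584 bases in *Tbl1x* and 1545 bases in *Tbl1xr1*, and 1195 of 1542 aligned bases (77.5%) were identical. The reads were 75 bases long. The most alike stretch of that length still differed at 11 positions, and the longest identical run was 20 bases. That stretch is given here on the plus strand, with the differing bases in capitals. It spans the junction of exons 6 and 7 of 16 in both genes, at chrX:74893202-74893263 and chrX:74893591-74893603 for *Tbl1x*, and at chr3:22089908-22089969 and chr3:22090314-22090326 for *Tbl1xr1* (mm9).
Tbl1x: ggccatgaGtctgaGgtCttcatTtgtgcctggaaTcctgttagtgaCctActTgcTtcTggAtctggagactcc
Tbl1xr1: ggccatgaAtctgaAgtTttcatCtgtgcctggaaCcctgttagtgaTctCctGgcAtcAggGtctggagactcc
The median 75-base stretch differed at 17 positions. No 75-base window of *Tbl1x* or *Hdac3* exons had another match in the genome with at most 3 mismatches. Such a match was found for 1.28% of *Tbl1xr1* windows, 12.6% of *Ncor1* windows and 14.7% of *Gps2* windows, and how reads matching several places were counted is not given in the sources used here. The counts of *Ncor1* and *Gps2* are uncertain to that extent.

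Of the subunits, 4 had more RNA in the KO-labelled libraries and 1, *Tbl1x*, had less. The adjusted p was under 0.05 for all 5 in DESeq2. Across the 17710 genes tested, 32.3% passed that threshold, 16.4% as higher and 15.8% as lower, so small differences of this kind were common in the whole transcriptome. No subunit met the study's own rule of a fold change of at least 2 with an adjusted p under 0.001, which 4.51% of genes met. The libraries of each group did not overlap for any of the 5 subunits, which held for 70.2% of all genes tested. The median log2 fold change was 0.33 over the subunits and 0.00 over all genes tested.

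**Figure D1:**
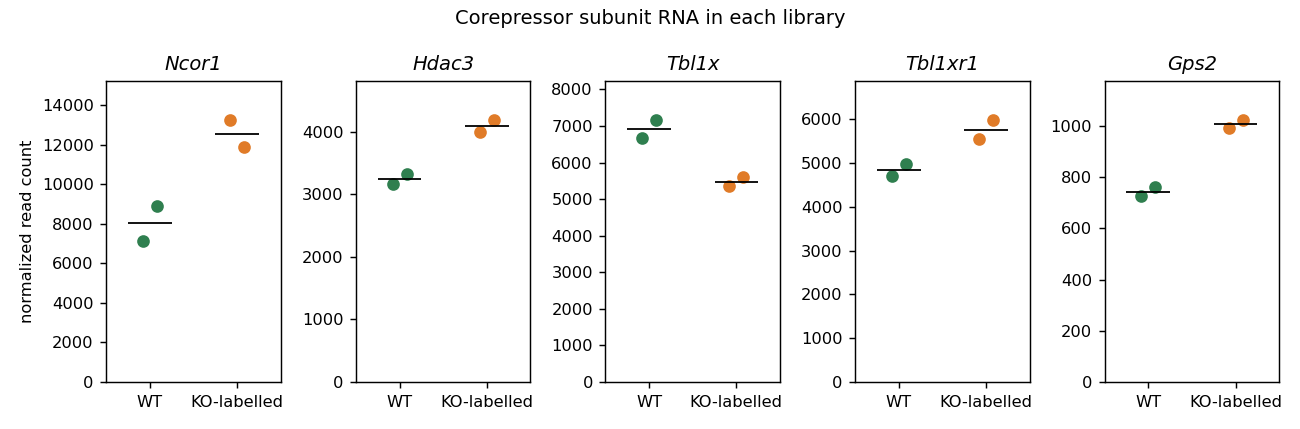
Normalized read counts (y axis, from 0) of each subunit gene in the 2 WT (green) and 2 KO-labelled (orange) libraries, 1 panel per gene, with lines at the group means. The KO-labelled points lie above the WT points for *Ncor1*, *Hdac3*, *Tbl1xr1* and *Gps2*, and below them for *Tbl1x*.

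The scaffold gene *Ncor1* (ENSMUSG00000018501.10, mm9 chr11:62129928-62272043, minus strand) showed the largest difference of the 5. Normalized read counts were 7141 and 8913 in WT and 13225 and 11870 in KO-labelled libraries. Both KO-labelled libraries stood above both WT libraries, but the replicates of each group were further apart, relative to their mean, than for any other subunit. The mean rose from 8027 ± 1253 to 12548 ± 958 (SD, n = 2 each), an increase of 56.3% (log2 fold change 0.64 ± 0.10 SE, 95% interval 0.45 to 0.84, adjusted p = 1.03e-09). Without KO-labelled replicate 1, the higher of that pair, the log2 fold change was 0.57 and no longer passed (adjusted p = 0.112). *Pigl*, on the other strand, shares 87 of the 12820 exonic bases.

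*Hdac3* (ENSMUSG00000024454.8, mm9 chr18:38095498-38114642, minus strand) encodes the deacetylase of the complex. Normalized read counts were 3162 and 3334 in WT and 4002 and 4187 in KO-labelled libraries. The gap between the groups was several times the gap within either. The mean rose by 26.0%, from 3248 ± 122 to 4095 ± 131 (SD, n = 2 each), with a log2 fold change of 0.33 ± 0.08 SE (95% interval 0.17 to 0.50, adjusted p = 0.000402). Without KO-labelled replicate 2 the log2 fold change was 0.30, with an adjusted p of 0.0611.

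The WD40 subunits moved in opposite directions. *Tbl1x* (ENSMUSG00000025246.7, mm9 chrX:74756352-74908322, plus strand) had normalized read counts of 6681 and 7155 in WT and 5351 and 5606 in KO-labelled libraries. Every KO-labelled value lay below every WT value. The mean fell from 6918 ± 335 to 5479 ± 180 (SD, n = 2 each), a change of -20.8% (log2 fold change -0.34 ± 0.08 SE, 95% interval -0.49 to -0.19, adjusted p = 9.31e-05). *Tbl1x* was the subunit whose call held under all 10 alternative settings, with adjusted p from 5.94e-05 to 0.039.

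*Tbl1xr1* (ENSMUSG00000027630.8, mm9 chr3:21975574-22115516, plus strand) had normalized read counts of 4711 and 4986 in WT and 5548 and 5982 in KO-labelled libraries. The groups were apart, by a smaller ratio than for the other subunits. The mean rose by 18.9%, from 4849 ± 195 to 5765 ± 307 (SD, n = 2 each), with a log2 fold change of 0.25 ± 0.08 SE (95% interval 0.09 to 0.41, adjusted p = 0.00805). The call was lost without WT replicate 1 (0.21, adjusted p = 0.161) and without KO-labelled replicate 2 (0.20, adjusted p = 0.228).

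*Gps2* (ENSMUSG00000023170.8, mm9 chr11:69727390-69730093, plus strand), whose product binds both the scaffold and the WD40 subunits, had the lowest counts. Normalized read counts were 727 and 760 in WT and 993 and 1022 in KO-labelled libraries. Replicates were close to each other and the groups were well apart. The mean rose by 35.5%, from 743 ± 24 to 1007 ± 21 (SD, n = 2 each), and the log2 fold change was 0.44 ± 0.13 SE (95% interval 0.19 to 0.69, adjusted p = 0.0031). Leaving out any single library kept the log2 fold change between 0.41 and 0.48 but ended the call, with adjusted p of 0.0913 without WT replicate 1, 0.0517 without WT replicate 2, 0.0705 without KO-labelled replicate 1 and 0.114 without KO-labelled replicate 2.

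Whole chromosomes differed between the groups, so each subunit was set against its neighbours. Medians were taken over genes whose normalized counts averaged 50 or more. The log2 fold change was 0.16 in the median on chromosome 11 (1143 genes), which carries *Ncor1* and *Gps2*. It was 0.13 on chromosome 18 (323 genes, *Hdac3*), 0.09 on chromosome 3 (607 genes, *Tbl1xr1*) and -0.06 on the X (484 genes, *Tbl1x*). At this cutoff every subunit lay further from 0 than the median of its own chromosome and on the same side. The difference from that median was 0.48 for *Ncor1*, 0.27 for *Gps2*, 0.20 for *Hdac3*, 0.16 for *Tbl1xr1* and -0.28 for *Tbl1x*. When chromosome medians were removed before the fit, *Ncor1* (0.49, adjusted p = 1.28e-05), *Hdac3* (0.21, adjusted p = 0.0441) and *Tbl1x* (-0.27, adjusted p = 0.00203) still passed. *Tbl1xr1* (0.18, adjusted p = 0.0748) and *Gps2* (0.28, adjusted p = 0.0907) did not, which left 2 subunits higher and 1 lower. The cause of the chromosome-wide shifts was not tested.

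**Figure D2:**
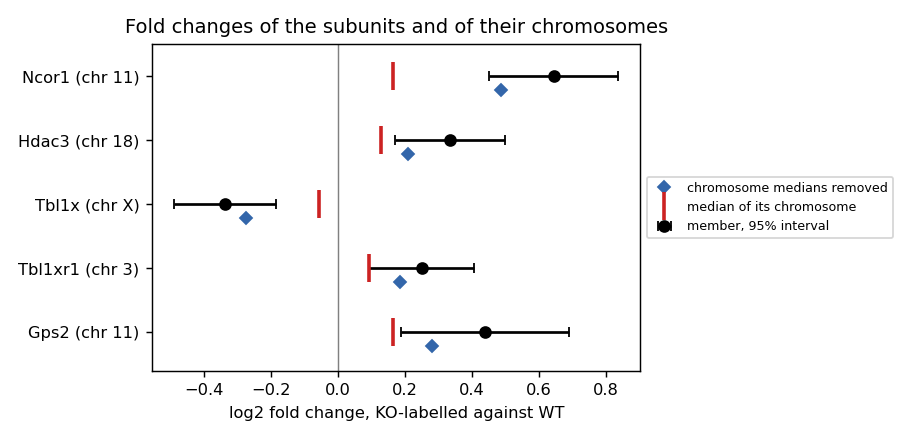
Log2 fold change of each subunit, KO-labelled against WT (x axis), with its 95% interval (black), the median of its chromosome (red bar) and its value once chromosome medians were removed (blue diamond). *Tbl1x* lies to the left of 0, at -0.34, and the other 4 to the right, and each value moves toward 0 once chromosome medians are removed.

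Levels of different genes were compared as counts per kilobase of exon per 1000000 counts. In WT the order was *Tbl1x* (20.4 ± 1.2), *Hdac3* (16.8 ± 0.84), *Ncor1* (13.0 ± 2.2), *Tbl1xr1* (12.4 ± 0.66) and *Gps2* (9.62 ± 0.43; SD, n = 2). *Ncor1* and *Tbl1xr1* were the neighbours in this order whose replicates overlapped. In KO-labelled libraries the order was *Hdac3* (21.2 ± 0.43), *Ncor1* (20.4 ± 1.8), *Tbl1x* (16.2 ± 0.34), *Tbl1xr1* (14.8 ± 0.61) and *Gps2* (13.1 ± 0.11), and there *Hdac3* and *Ncor1* overlapped. *Tbl1x* thus went from the highest per-length level of the 5 to the third. Summed over the 5, the per-length level was 68.3 and 75.9 in WT and 85.8 and 85.3 in KO-labelled libraries. With the longest transcript as the length in place of all exonic bases, *Ncor1* led in the KO-labelled libraries (28.9) and *Gps2* (16.0) came above *Tbl1xr1* (14.8).

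The opposite differences of the WD40 paralogs changed their balance. *Tbl1x* gave 62.0% and 62.3% of their summed per-length level in WT and 52.6% and 51.9% in KO-labelled libraries. The share averaged 62.2% ± 0.19 in WT and 52.3% ± 0.51 in the others (SD, n = 2 each), a difference of -9.89 percentage points, far wider than the replicate spread. An exact two-sided permutation test gave p = 0.333, the smallest that 2 against 2 libraries allow. The ratio of *Tbl1x* to *Tbl1xr1* was 1.64 ± 0.01 in WT and 1.10 ± 0.02 in KO-labelled libraries, so *Tbl1x* stayed the more abundant of the pair in all 4. The per-length ratio of *Hdac3* to *Ncor1* went from 1.30 ± 0.15 to 1.04 ± 0.11, and that of *Gps2* to *Ncor1* from 0.747 ± 0.093 to 0.644 ± 0.062, where the libraries of the groups overlapped.

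**Figure D3:**
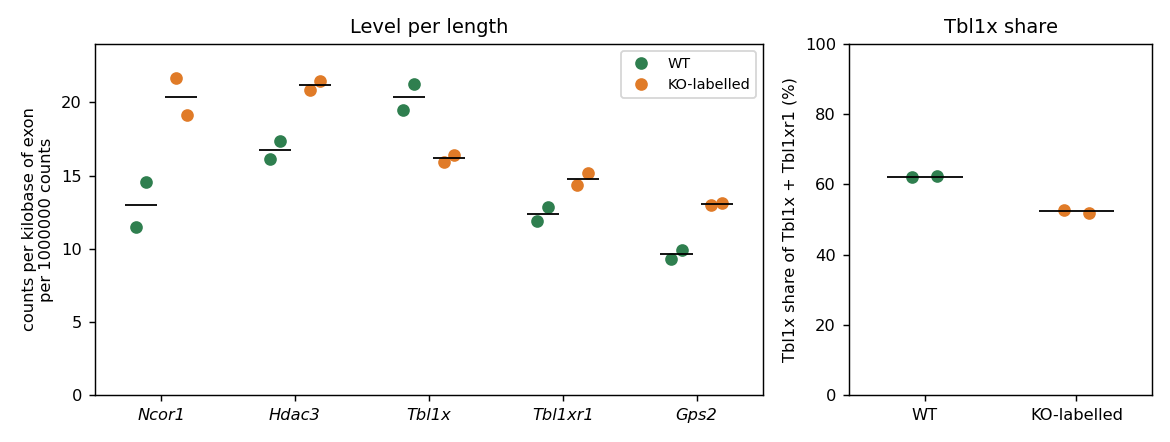
Left, counts per kilobase of exon per 1000000 counts (y axis, from 0) of the 5 subunits in each WT (green) and KO-labelled (orange) library, with lines at the group means. Right, the *Tbl1x* share in percent of the summed *Tbl1x* and *Tbl1xr1* level in each library, near 62% in WT and 52% in KO-labelled libraries.

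The direction of each subunit was the same under every setting tried, while the side of the threshold was not. Over the 10 alternatives, *Ncor1* and *Hdac3* each lost the call in 1, *Tbl1xr1* in 4 and *Gps2* in 5. Other size factors, edgeR and a filter on low counts ended no call for any subunit. With replicate number as a block, 1 call was lost, that of *Tbl1xr1* (0.25, adjusted p = 0.0718).

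**Figure D4:**
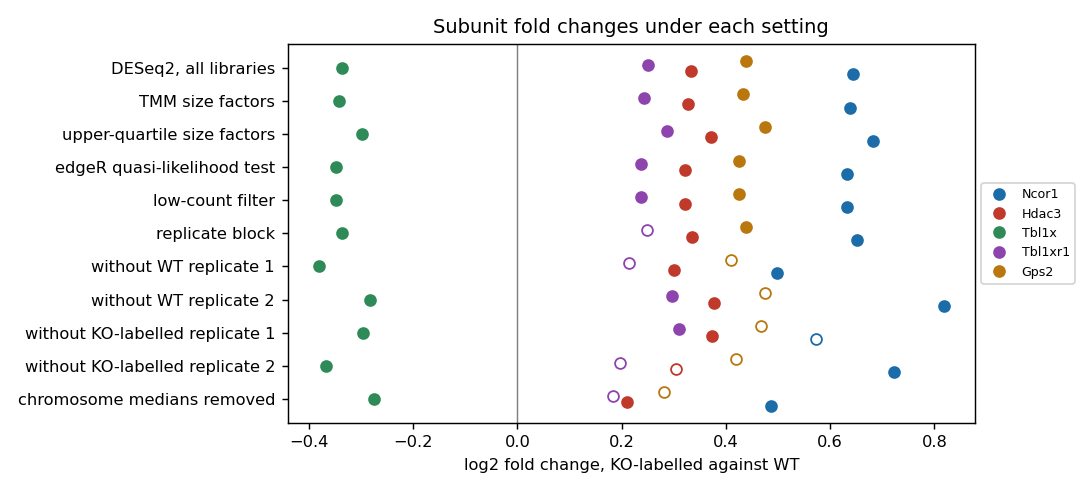
Log2 fold change of each subunit, KO-labelled against WT (x axis), under the DESeq2 fit of all libraries and 10 alternative settings (y axis). Filled points have an adjusted p under 0.05 and open points do not. All *Tbl1x* points are filled and left of 0, and all *Gps2* points without a library are open.

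RefSeq promoter sequences (GRCm38.p6, 250 bases before to 50 after a transcript start) were found for 4 of the 5 genes, all but *Hdac3*, with 2 starts for *Ncor1*. The 250 upstream bases were searched on both strands for the letters of 8 common elements. The ETS core CCGGAAG stood in 6.91% of 32851 promoters and was found before a RefSeq start of *Ncor1* and of *Gps2*. A link to their fold changes was not tested. In the GENCODE vM1 annotation used for the counts, both places lie inside the gene. The 30 bases around each match are shown on the strand of the gene, with the match in capitals, because they put the same letters close to these starts, at -53 to -47 for *Ncor1* (chr11:62457368-62457397, minus strand) and -28 to -22 for *Gps2* (chr11:69913980-69914009, plus strand).
Ncor1: ctccccaaccctCCGGAAGgaggaggagcc
Gps2: gccgtcgtgactCCGGAAGgatttatcctg
The GC box GGGCGG, held by 32.7% of promoters, occurred before RefSeq starts of *Ncor1*, *Tbl1x* and *Tbl1xr1*, and CCAAT, held by 33.9%, before that of *Gps2*. TATAAA (12.4% of promoters), CACGTG (6.02%), TGACGT (6.47%) and the nuclear receptor half-site AGGTCA (14.0%) were found in none of the member windows. TGGGAA, the core bound by the Notch pathway factor RBPJ (21.6%), was found at the more downstream of the *Ncor1* starts. These matches describe letters only.

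For each subunit, the genes with the most similar pattern over the 4 libraries were found by the Euclidean distance of centred log2 normalized counts, among 13306 genes. *Ccdc86* and *Setd1a* were nearest to *Ncor1* (distances 0.034 and 0.036), *Dhx33* and *Mettl2* to *Hdac3* (0.013 and 0.015), and *Bok* and *Rpl23a* to *Tbl1x* (0.019 and 0.024). *Arhgef25* and *Tox4* were nearest to *Tbl1xr1* (0.012 and 0.017), and *4933432B09Rik* and *Zcchc8* to *Gps2* (0.011 and 0.012). Over 4 libraries in 2 groups, genes with about the same fold change come out as near.

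Genes that work with the complex were then counted by list. Of the 8 associated proteins, 1 rose and 2 fell at an adjusted p under 0.05, with a median log2 fold change of -0.18. The class IIa deacetylase gene *Hdac5* rose (0.28 ± 0.09 SE, adjusted p = 0.0133), and *Zbtb33*, encoding the methyl-DNA binding protein Kaiso (-0.37 ± 0.11, adjusted p = 0.00541), and the demethylase gene *Kdm4a* (-0.27 ± 0.08, adjusted p = 0.00198) fell. These calls were fragile. *Hdac5* passed in 1 of 4 fits that left out a library, the one without WT replicate 2. *Zbtb33* passed only without KO-labelled replicate 1 and *Kdm4a* only without WT replicate 1, and the adjusted p of the 3 genes reached 0.266, 0.19 and 0.0956 in the others. With chromosome medians removed 0 rose and 1, *Zbtb33*, fell.

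Proteins that assemble, modify or degrade the complex include the TRiC chaperonin, which helps to assemble HDAC3 with its scaffold, and the inositol phosphate kinases that make the small molecule bound between HDAC3 and its scaffold. Of these 22 genes 5 rose and 4 fell, and the median was 0.05. The chaperonin genes *Cct4* (0.30 ± 0.07, adjusted p = 3.1e-05) and *Cct7* (0.28 ± 0.07, adjusted p = 0.000649) and the ubiquitin ligase gene *Siah1b* (0.30 ± 0.08, adjusted p = 0.00143) rose, while 46.7% of *Siah1b* windows had a near copy. The ubiquitin protease gene *Usp44* (-0.67 ± 0.16, adjusted p = 0.000155), the kinase gene *Ipmk* (-0.39 ± 0.08, adjusted p = 5.17e-06) and *Ube2d1* (-0.38 ± 0.15, adjusted p = 0.0416) fell. The fourth that fell was the chaperonin gene *Cct2* (-0.28 ± 0.07, adjusted p = 0.000136), which turned to 0.06 (adjusted p = 0.537) with chromosome medians removed. Of the 8 chaperonin genes, 3 passed as higher and 1 as lower, with *Tcp1*, *Cct5*, *Cct6a* and *Cct8* between -0.02 and 0.06. The third that passed as higher was *Cct3* (0.17 ± 0.07, adjusted p = 0.0335). It did not pass with edgeR (0.0726), the low-count filter (0.0665), the replicate block (0.19) or chromosome medians removed (0.264), nor without WT replicate 2 (0.361), KO-labelled replicate 1 (0.121) or KO-labelled replicate 2 (0.261). *Cct2* and *Cct3* were named with their values known. All 4 that fell lie on chromosome 10, where the median log2 fold change was -0.35, and none of them passed with chromosome medians removed, when 6 genes of the list rose and 0 fell. *Cct4* did not pass then either (0.15, adjusted p = 0.0819), while *Cct7* and *Siah1b* did. With upper-quartile size factors 7 rose and 3 fell. *Cct7* was not called without WT replicate 2 (adjusted p = 0.0667) or KO-labelled replicate 2 (0.0775), *Siah1b* without KO-labelled replicate 2 (0.0995) and *Usp44* without WT replicate 1 (0.0717), and *Ube2d1* in none of those fits (0.142 to 0.405).

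Of 24 DNA-binding partners that recruit the complex, 21 were tested, 6 rose and 3 fell. The median was -0.21, and it was -0.07 without WT replicate 1 and -0.06 without KO-labelled replicate 1. Genes below the median included low ones that were not called. Among these were *Cbfa2t3* (-2.62, mean normalized count 10.2), *Nr1h3* (-1.01, mean 34.6) and *Rxrg* (-0.54, mean 43.0). *Zbtb16* (0.37, mean 28.5), also low and not called, lay above it. Among nuclear receptors, *Nr1d1*, encoding the clock repressor Rev-erb alpha (0.88 ± 0.22, adjusted p = 0.000416), and the retinoic acid receptors *Rara* (0.82 ± 0.09, adjusted p = 1.32e-18) and *Rarg* (0.38 ± 0.07, adjusted p = 6.05e-07) rose. Their partner *Rxra* (-0.54 ± 0.10, adjusted p = 6.42e-07) and the zinc finger repressor gene *Bcl6* (-1.11 ± 0.36, adjusted p = 0.00927) fell. *Rbpj*, the Notch pathway factor to which Spen also binds, was named for that link with its values known. It passed (0.20 ± 0.07, adjusted p = 0.0183), but not without WT replicate 1 (0.167), WT replicate 2 (0.0898) or KO-labelled replicate 2 (0.342), with the replicate block (0.128) or with chromosome medians removed (0.139). *Bcl6* was a low gene, at 136 ± 23 in WT and 62.8 ± 17 in KO-labelled libraries (SD, n = 2 each). It was called without KO-labelled replicate 2 and in no other fit that left out a library (adjusted p up to 0.28), and not with chromosome medians removed (0.0667). *Nr1d1* was lost without WT replicate 1 (0.0715) and without KO-labelled replicate 1 (0.0716), and 8.42% of its exonic bases overlap *Thra* on the other strand. With edgeR the list split 7 to 7.

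Coactivators take the place of the corepressor on ligand-bound receptors. Of 10, 6 rose and 0 fell at an adjusted p under 0.05, and the median was 0.31, close to that of the corepressor subunits. The acetyltransferase gene *Kat2b* (0.56 ± 0.08, adjusted p = 7.96e-11), the p160 coactivator gene *Ncoa3* (0.42 ± 0.07, adjusted p = 2e-07) and the Mediator subunit gene *Med1* (0.40 ± 0.07, adjusted p = 6.24e-07) led. They kept the call in every fit that left out a library, although 53.6% of *Kat2b* windows had a near copy. The other 4 were not called at all.

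Of 24 genes that such receptors control, 6 rose and 6 fell, with a median of 0.02. By the study's rule, 3 rose and 2 fell. The 3 risers were all of the retinoic acid pathway. They were *Stra6*, for retinol uptake, which went from 17.8 ± 2.6 to 112 ± 14 normalized counts (log2 fold change 2.65 ± 0.47, adjusted p = 3.07e-07), the carrier gene *Crabp2* (1.81 ± 0.20, adjusted p = 1.47e-17) and the meiosis gene *Stra8* (1.80 ± 0.12, adjusted p = 3.73e-51). The pathway was not uniform, as *Rarb* (-1.53) and *Cyp26a1* (-2.07), named after their values were seen, also passed as lower (adjusted p = 0.0257 and 0.0225). Both were low genes, and neither was called with the replicate block (0.0931 and 0.0876) or in any fit that left out a library. In those fits *Rarb* had an adjusted p of 0.23 without WT replicate 1, 0.25 without WT replicate 2 and 0.0906 without KO-labelled replicate 2 and none without KO-labelled replicate 1, and *Cyp26a1* had none in any, being too low for the independent filter. *Mylip*, a ubiquitin ligase gene controlled by oxysterol receptors (-1.83 ± 0.28, adjusted p = 1.03e-09), and the fatty acid receptor targets *Pdk4* (-1.30 ± 0.26, adjusted p = 6.79e-06) and *Plin2* (-0.85 ± 0.17, adjusted p = 3.06e-06) fell, with near copies for 18.1% of *Plin2* windows. Other oxysterol receptor targets of the list, named with their values known, went the other way, as the cholesterol exporter genes *Abcg1* (0.71 ± 0.13, adjusted p = 8.51e-07) and *Abca1* (0.28 ± 0.11, adjusted p = 0.0471) rose. *Abcg1* kept its call in every fit that left out a library, and *Abca1* in none (adjusted p = 0.332 and 0.146 without WT replicates 1 and 2, and 0.326 and 0.188 without KO-labelled replicates 1 and 2). *Srebf1*, *Scd1* and *Lpcat3* were not called (-0.07, 0.15 and -0.22). Nor were the fatty acid receptor targets *Cpt1a* (0.17, adjusted p = 0.204) and *Angptl4* (0.11, adjusted p = 0.517), unlike *Pdk4* and *Plin2*. With chromosome medians removed 5 rose and 9 fell, and the median was -0.21. It was 0.14 without WT replicate 2 and -0.02 without KO-labelled replicate 2.

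Subunits of other deacetylase complexes were counted for comparison. Of 25 genes of the class I complexes built on HDAC1 and HDAC2, and *Hdac8*, 9 rose and 8 fell, with a median of 0.02. The Sin3 scaffold gene *Sin3a* (0.70 ± 0.07, adjusted p = 1.94e-22) and the CoREST scaffold gene *Rcor2* (0.65 ± 0.07, adjusted p = 1.1e-18) rose. With chromosome medians removed they still passed, at 0.56 for *Sin3a* and 0.26 for *Rcor2*, which lies on chromosome 19, where the median was 0.38. *Hmg20b* (-0.74 ± 0.12, adjusted p = 1.01e-08), *Mier2* (-0.49 ± 0.12, adjusted p = 0.000189) and the deacetylase gene *Hdac2* (-0.45 ± 0.08, adjusted p = 3.94e-08) fell, and all 3 lie on chromosome 10. With chromosome medians removed these 3 stood at -0.40, -0.14 and -0.11, and 8 genes of the list rose and 1, *Hmg20b*, fell. *Mier2* was lost without WT replicate 1 (adjusted p = 0.0588).

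**Figure D5:**
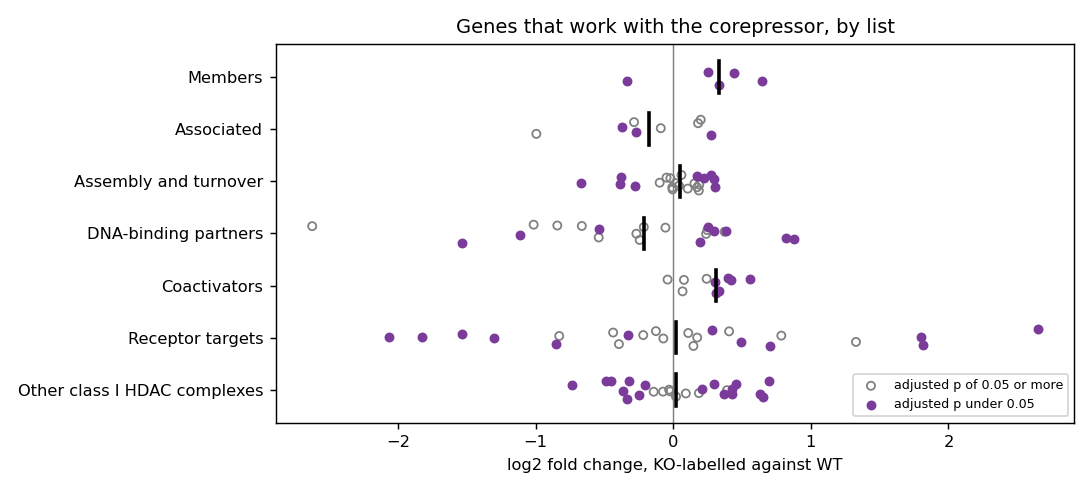
Log2 fold change of each gene tested, KO-labelled against WT (x axis), by list (y axis), filled where the adjusted p was under 0.05, with a bar at the median of each list. The medians of the subunits (0.33) and of the coactivators (0.31) lie to the right of the other 5 lists.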

How the data were processed

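Total RNA of 4 libraries was sequenced. The authors removed ribosomal RNA in place of poly-A selection, made stranded libraries, mapped paired reads of 75 bases to mm9 with STAR and counted them over GENCODE vM1 genes with featureCounts. What they deposited are raw counts, with no normalization. Versions and the strand setting are not given in the sources used here, so overlapping genes are uncertain. Groups and replicate numbers came from the labels, and 0 value columns had no sample. Here DESeq2 1.42.0 (R 4.3.3, design of group alone, independent filtering, Benjamini-Hochberg adjustment over the 17710 genes tested) was the main test. Positive log2 fold changes are higher in KO-labelled libraries. Normalized read counts are counts divided by DESeq2 size factors. The scripts were tested on simulated data. Alternatives were edgeR 4.0.16, TMM and upper-quartile size factors, a filter of 10 counts in at least 2 libraries, a replicate block, each library left out, and chromosome medians set to 0. At the total counts given with the samples, counting error weighs most on low genes. The members and lists were chosen with earlier results of these data known. From each list, at most 3 genes per direction with the largest change, an adjusted p under 0.05 and a mean of at least 50 were named, and for each subunit the 2 genes of most similar pattern. *Rarb*, *Cyp26a1*, *Rbpj*, *Abca1*, *Abcg1*, genes of the chaperonin and of lipid metabolism, low DNA-binding partners and cell type markers were added outside this rule. Their values were known. Where a symbol had several identifiers, the one with most exonic bases was used. *Sox1* was not analysed here, and some genes that the rule names are not reported here. Near copies were sought with minimap2 2.31.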

Additional observations from a re-analysis of the deposited data

How the results depend on the processing

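No subunit turned direction under any of 10 alternatives. Over all results and the alternatives run for each, 514 values stayed within the limits set, 59 moved beyond them, 71 calls were lost and 1 direction turned. That was *Cct2*, at 0.064 with chromosome medians removed. Of 36 named genes other than the subunits, 19 lost their call at least once (60 of 355 fits of these genes, beside that of *Cct2*). List medians near 0 turned sign, for receptor targets from 0.02 to -0.21 with chromosome medians removed and -0.02 without KO-labelled replicate 2, and for class I genes from 0.02 to -0.0014 without WT replicate 1. The median of class I genes was 0.08 without WT replicate 2 and 0.08 without KO-labelled replicate 1. Replicate numbers do not pair the libraries (correlation of deviations of same-numbered libraries -0.02 over 13306 genes). The replicate block ended the call of *Tbl1xr1* (0.25, adjusted p = 0.0718) and of no other subunit. It left 0 associated genes rising and 0 falling, 3 assembly and turnover genes rising and 3 receptor targets falling. With chromosome medians removed, *Tbl1xr1* (0.18) and *Gps2* (0.28) were not called, 2 subunits rose, associated genes went to 0 rising and 1 falling, 0 assembly genes fell and 1 class I gene fell. Falling DNA-binding partners numbered 7 with edgeR and 5 with the low-count filter, and the cause was not tested. Leaving out 1 library gave log2 fold changes of 0.50 to 0.82 (*Ncor1*), 0.30 to 0.38 (*Hdac3*), -0.38 to -0.28 (*Tbl1x*), 0.20 to 0.31 (*Tbl1xr1*) and 0.41 to 0.48 (*Gps2*), with 1 to 3 subunits rising and 1 falling. In these fits the group with 1 library is assumed to vary like the other. In the same fits, 0 to 1 associated genes rose and 0 to 1 fell, 2 to 5 assembly genes rose and 2 to 3 fell, 2 to 4 DNA-binding partners rose and 1 to 2 fell, and 4 to 6 coactivators rose and 0 fell. Receptor targets gave 5 rising and 3 falling in each, and class I genes 5 to 7 rising and 5 falling, with fewer libraries in every fit. The *Tbl1x* share differed by -10.3 to -9.54 points when a library was left out and by -9.28 points with longest transcripts. With those lengths, levels in WT and KO-labelled libraries were 18.5 and 28.9 (*Ncor1*), 18.8 and 23.8 (*Hdac3*), 27.4 and 21.8 (*Tbl1x*) and 11.8 and 16.0 (*Gps2*). With a minimum mean of 500, *Tbl1x* lay -0.35 from the median of its chromosome. Depth limits low genes most, such as *Stra6* and *Bcl6*. Over all genes, 2909 rose and 2805 fell in the main test, 3389 and 3626 with edgeR, and 1857 and 1973 with the block.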
